A study of Mus musculus with 57 samples.

Results

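Gene expression in the nucleus accumbens (NAc) was compared between mice that drank much and mice that drank little ethanol. All were male C57Bl/6NCrl mice, an inbred strain, so the animals share 1 genotype. Every mouse had free choice between 10% w/v ethanol and water for 18 h sessions, and tissue was taken 6 days after the last session. High drinkers were the 11 mice whose average intake lay above 7 g/kg in 18 h, and low drinkers were the 7 mice below 2 g/kg. Among the mice with an NAc array, 1 lay in between, mouse 3, and was left out of the comparison. The comparison thus used 18 of the 57 arrays of the series, 1 array per mouse. Arrays of the prefrontal cortex (PFC) and the ventral midbrain region (VMB), mostly of the same animals, make up nearly all of the rest. Low drinkers had the same access to ethanol and no ethanol-naive group is part of the comparison, so the difference is one between individuals that chose differently, and expression before drinking and after drinking cannot be told apart. Array titles carry a replicate number and no intake. That number was taken to be the mouse number of the study's intake plot, and the grouping rests on that match.

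The NAc is the ventral part of the striatum. Nearly all of its neurons are GABAergic projection neurons that carry either the D1 or the D2 dopamine receptor and release the opioid peptides dynorphin or enkephalin together with other neuropeptides. They receive dopamine from the ventral midbrain and glutamate from the prefrontal cortex, hippocampus and amygdala, and the region is known for its part in reward and in voluntary drug and ethanol intake.

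RNA was measured on Affymetrix mouse arrays, on which each gene is read by 1 or several sets of short probes (probesets). The values are RMA values, a background-corrected and normalized summary of each probeset on the log2 scale, so a difference of 1 is a factor of 2. Of 22626 probesets, 19815 reached an RMA value of 4.5 on at least 1 array of the series and were tested. The NAc arrays correlated with each other at r = 0.978 to 0.998 over all 22626 probesets (median 0.993, 153 pairs of arrays). The arrays of mice 1 and 19 (high drinkers) and mouse 6 (low drinker) stood apart from the other 15. They had the lowest mean correlations with the rest and lay at -39.4, -35.8 and -36.3 on the first principal component, which held 52.0% of the variance between arrays. High and low drinkers overlapped along that component, with a mean of 1.0 (SD 21.0) in high drinkers and -1.57 (SD 22.9) in low drinkers. The 10 genes that mark striatal projection neurons (Drd2, Penk, Pdyn, Tac1, Ppp1r1b, Rgs9, Pde10a, Rasd2, Rarb and Rxrg) had a mean level of 9.93 (SD 0.114, n = 18) in the NAc against 6.37 in the PFC and 6.54 in the VMB, and all 10 were higher in the NAc than in either other region. The arrays therefore carried the labelled tissue.

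**Figure D1:**
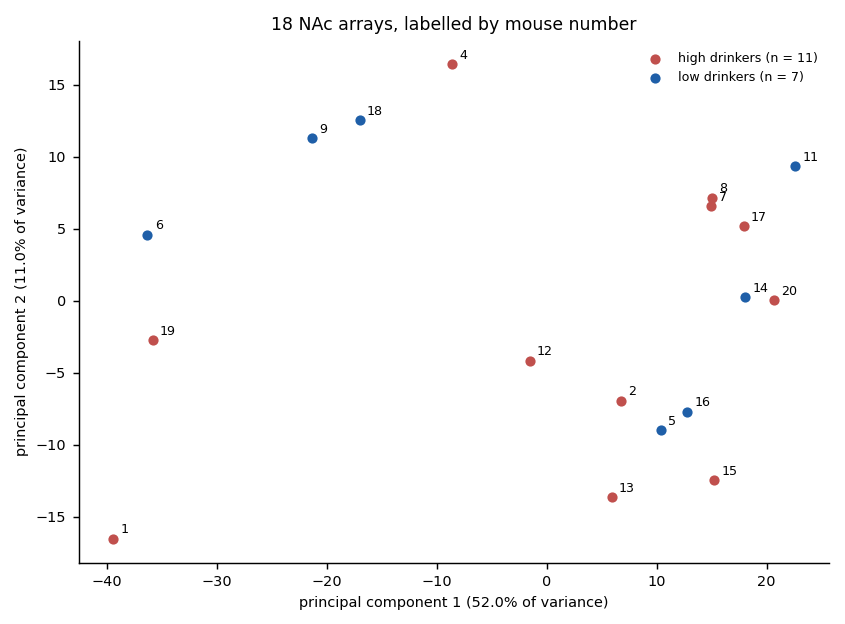
The 18 NAc arrays on their first and second principal components (52.0% and 11.02% of the variance), 1 point per mouse with its number, blue for low and red for high drinkers. Low and high drinkers are mixed along both axes, and mice 1, 6 and 19 lie at the far left.

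No probeset separated high from low drinkers at a 1% false discovery rate: 0 of 19815 passed (0%), and the smallest adjusted p in limma was 0.470. The study's methods used the same rate on another measure, the correlation of expression with each mouse's average intake, and with another adjustment. Transcripts did pass there. The comparison of groups made here does not repeat that test. At an unadjusted p under 0.05, there were 541 probesets (2.73%), 353 higher in high drinkers (1.78%) and 188 lower (0.949%). That share is below the proportion of 0.05 that would on average pass this threshold if no probeset differed. The differences were small. The quartiles of all tested probesets lay at -0.05 and 0.05 on the log2 scale, the extremes were 0.66 and -0.60, and 6 probesets differed by more than 0.5. Residual variation between mice of a group had a median SD of 0.175. An exact permutation test over all 31824 ways to divide the 18 mice gave 643 probesets at an unadjusted p under 0.05. After adjustment it gave 0 probesets, with a smallest adjusted p of 0.623. The smallest p that these divisions allow is 6.28e-05, so 1 probeset alone could not pass after adjustment over 19815. This 0 was thus largely fixed in advance and adds no support to that of limma. The groups did not overlap for 2 probesets: Ncstn, higher in high drinkers (0.00505% of those tested), and Thap7, lower (0.00505%). After quantile normalization of the NAc arrays Thap7 had an unadjusted p of 0.094 in limma. The excess of higher over lower probesets depended on scaling. With each array centred on its median the split was 312 higher and 266 lower, and after quantile normalization of the NAc arrays it was 378 and 342. Leaving out mouse 6 alone lowered the count of higher probesets from 353 to 229.

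**Figure D2:**
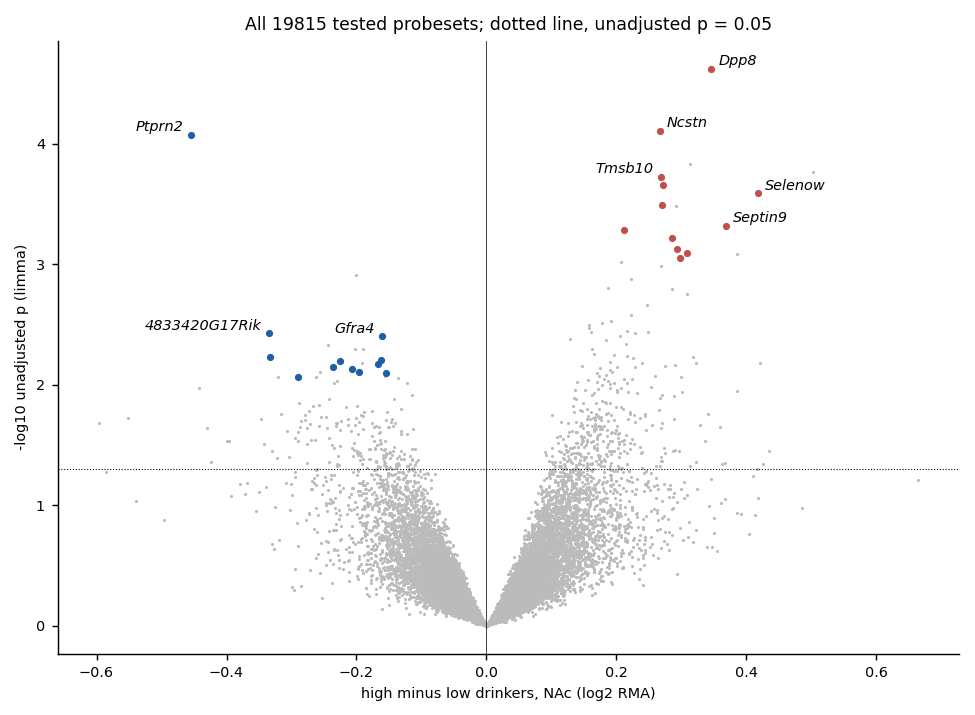
Each point is 1 of the 19815 tested probesets, with the high minus low difference in the NAc (log2 RMA) on the x axis and -log10 of limma's unadjusted p on the y axis. The 12 genes named as higher are red and the 12 named as lower are blue; all points lie between -0.60 and 0.66.

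The genes described first are the 12 of smallest p in each direction among probesets with 1 gene symbol and a mean of at least 6. They were picked by rank, so their p-values describe the order and are no independent evidence. The 12 higher genes differed by 0.21 to 0.42 on the log2 scale (1.16- to 1.34-fold), and the 12 lower genes by -0.15 to -0.45 (1.11- to 1.37-fold). Their adjusted p ran from 0.470 to nearly 1.

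Dpp8, a cytosolic dipeptidyl peptidase that removes dipeptides from the amino end of proteins, led the list. Its RMA value in low drinkers ran from 7.59 through a median of 7.75 to 7.89, and in high drinkers from 7.85 through 8.06 to 8.36. In all, 10 of the 11 high drinkers lay above every low drinker, and the exception was mouse 20. The difference was 0.35 ± 0.06 (SE) on the log2 scale, or 1.27-fold (limma, adjusted p = 0.470). Ncstn, or nicastrin, is a subunit of the gamma-secretase complex that cleaves Notch and the amyloid precursor protein within the membrane. It ran from 5.95 to 6.18 (median 6.00) in low drinkers and from 6.19 to 6.49 (median 6.26) in high drinkers. All 11 high drinkers lay above all 7 low drinkers, but the highest low and the lowest high value were 6.18 and 6.19. Its difference of 0.27 ± 0.05 was 1.20-fold (limma, adjusted p = 0.553; exact permutation p = 6.28e-05, the smallest that 31824 divisions allow).

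Another 3 of the higher genes act in the cytoskeleton. Tmsb10, thymosin beta 10, binds actin monomers and keeps them from polymerizing. The named probeset (1436902_x_at) ran from 10.86 to 11.25 (median 10.99) in low drinkers and from 11.14 to 11.51 (median 11.29) in high drinkers, a difference of 0.27 ± 0.06. Of the high drinkers, 6 lay above all low drinkers. Septin9, a member of the septin family of filament-forming GTPases, ran from 6.49 to 7.27 (median 7.11) and from 7.14 to 7.58 (median 7.41). Here 9 high drinkers lay above all low drinkers, and the low group was stretched by mouse 6 at 6.49. Without the arrays of mice 1, 6 and 19 the Septin9 difference was 0.27 in place of 0.37. Pcm1, a scaffold protein of the centriolar satellites, was at 6.73 (SD 0.150, n = 7) and 7.03 (SD 0.152, n = 11), with 9 high drinkers above all low drinkers.

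Selenow, a small selenoprotein, had the largest difference of the 12 at 0.42 ± 0.09, or 1.34-fold. It ran from 10.23 to 10.93 (median 10.52) in low drinkers and from 10.67 to 11.20 (median 10.95) in high drinkers, so the groups overlapped and 6 high drinkers lay above all low ones. Atp6v0a1, a membrane subunit of the proton pump that acidifies synaptic vesicles and lysosomes, was at 9.41 (SD 0.150) and 9.69 (SD 0.0880), a difference of 0.27 ± 0.06, with 7 high drinkers above all low drinkers. Kat6a, a histone acetyltransferase, ran from 8.37 to 8.53 (median 8.39) in low drinkers and from 8.48 to 8.77 (median 8.65) in high drinkers, and 8 of the 11 lay above all low drinkers. It is also among the chromatin genes that the study picked from these same arrays. Pum2, a protein that binds mRNA and represses its translation, was at 8.35 (SD 0.213) and 8.66 (SD 0.125). Plekhj1, Fam76a and the Riken gene 1700037H04Rik made up the 12, with differences of 0.27, 0.29 and 0.30.

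Ptprn2, a membrane protein of dense core vesicles that is related to receptor tyrosine phosphatases, stood first among the lower genes. It ran from 6.76 to 7.29 (median 7.15) in low drinkers and from 6.30 to 6.95 (median 6.65) in high drinkers. Of the high drinkers, 9 lay below every low drinker. The difference of -0.45 ± 0.09 was 1.37-fold (limma, adjusted p = 0.553). The other 11 lower genes had unadjusted p of 0.00374 to 0.00862 in limma.

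Among the lower genes, 2 belong to signalling from outside the cell. Gfra4, a receptor of the GDNF family, had a mean of 8.41 (SD 0.0766) in the low and 8.25 (SD 0.0855) in the high group, with 9 high drinkers below all low ones and a difference of -0.16 ± 0.05. Fkbp5, a co-chaperone that lowers the affinity of the glucocorticoid receptor for its hormone, ran from 6.86 to 7.13 (median 6.98) and from 6.53 to 7.02 (median 6.76), a difference of -0.20 ± 0.07. The others have varied roles. Letm1 is an ion exchanger of the inner mitochondrial membrane (-0.24 ± 0.08), Rae1 takes part in mRNA export (-0.16 ± 0.05), Trub2 is a pseudouridine synthase (-0.17 ± 0.06), Mgat3 adds the bisecting sugar to N-glycans (-0.23 ± 0.07) and Nt5c2 is a cytosolic nucleotidase (-0.15 ± 0.05). Pdxdc1 differed in spread as well as in mean. Its low drinkers ran from 7.39 to 7.65 and its high drinkers from 6.72 to 7.62, so that the high group covered the wider range (SD 0.291 against 0.101). The lowest values, 6.72 and 6.80, came from mice 19 and 1, whose arrays stood apart. Without the arrays of mice 1, 6 and 19 the Pdxdc1 difference was -0.26 in place of -0.33. Ywhaz, the zeta form of the 14-3-3 proteins, had the fewest high drinkers outside the low range, 3 of 11. The Riken genes 4833420G17Rik (-0.34 ± 0.10) and 1810030O07Rik (-0.21 ± 0.07) complete the 12.

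**Figure D3:**
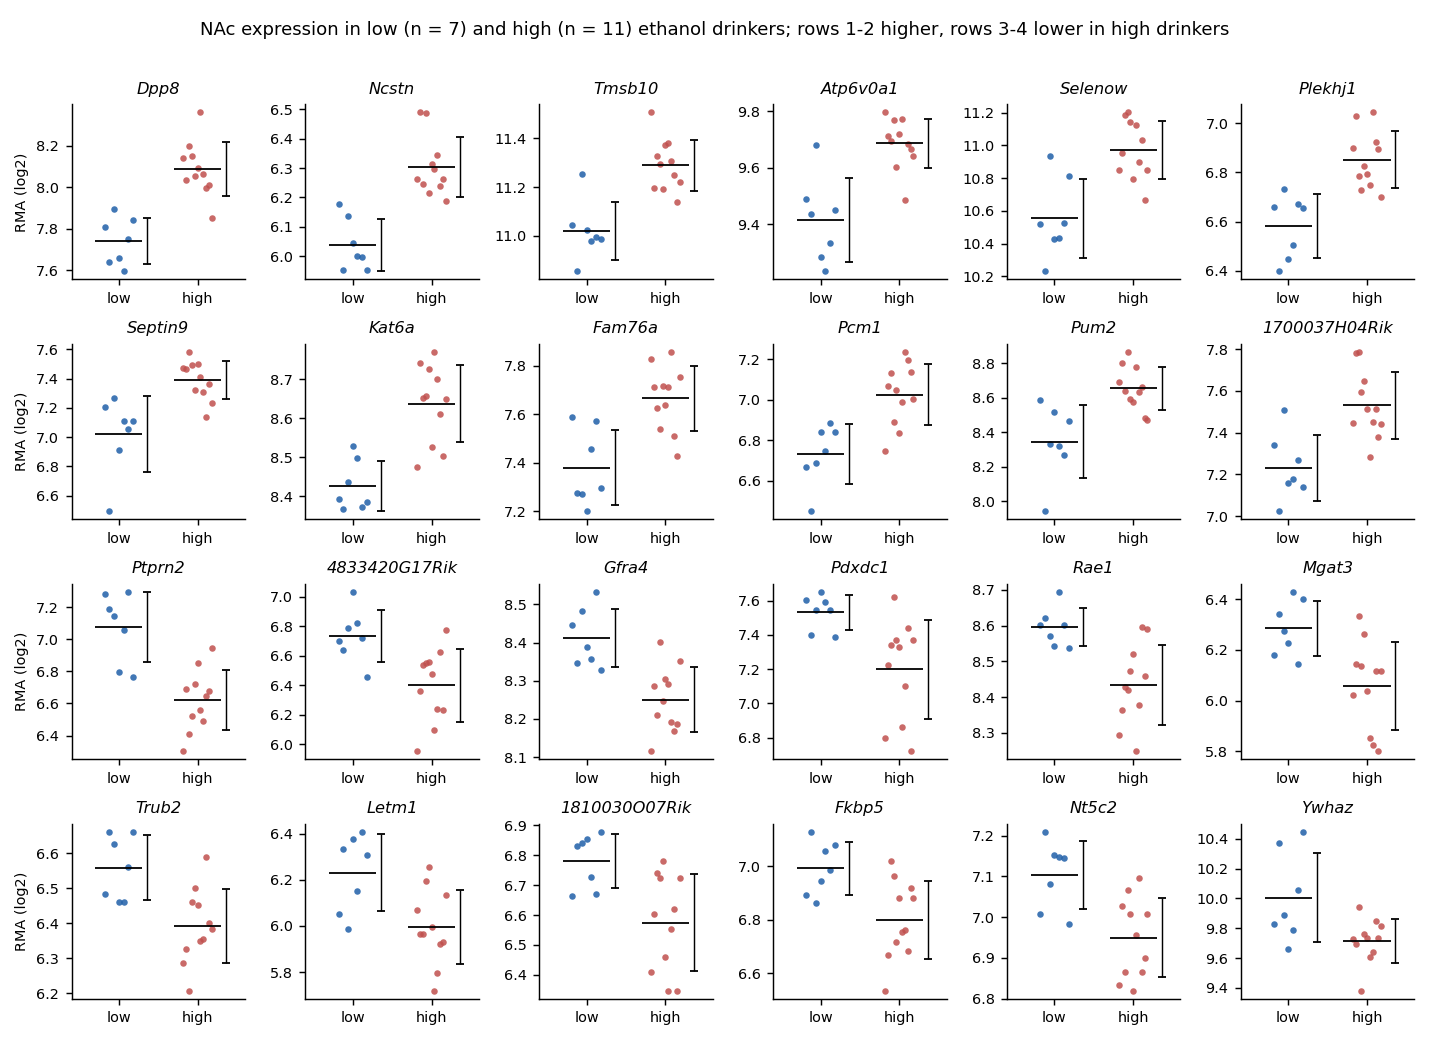
RMA values (log2, y axis, scaled separately per gene) of the 12 higher genes (upper 2 rows) and the 12 lower genes (lower 2 rows), 1 point per mouse, low drinkers blue (n = 7) and high drinkers red (n = 11). Horizontal lines are means and error bars SD; only for Ncstn do the groups not overlap.

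Most of these genes are read by more than 1 tested probeset, and the probesets of a gene often differed. Of the named genes, 8 of the 12 higher and 8 of the 12 lower genes had at least 1 further tested probeset. A further probeset differed the same way at an unadjusted p under 0.05 for 4 higher genes, Dpp8, Tmsb10, Pcm1 and 1700037H04Rik, and for 1 lower gene, Ywhaz. The second Dpp8 probeset was higher by 0.14 ± 0.07. For Tmsb10, a second probeset (1417219_s_at) was higher by 0.29 ± 0.07, with 9 high drinkers above all low drinkers, while another (1437185_s_at) had means of 13.17 and 13.12 in low and high drinkers and differed by -0.05 ± 0.04. Selenow showed a like pattern. Its other probeset, at 13.12 and 13.11, differed by -0.01 ± 0.05. The 2 further Pcm1 probesets were higher by 0.20 and 0.21. Probesets with the endings _x_at and _s_at hold probes that match more than 1 transcript, so their values may include related sequences.

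At least 1 further probeset had the opposite sign for 5 of the 12 higher and 5 of the 12 lower genes, although none of these opposite differences reached an unadjusted p under 0.05. Ywhaz was the clearest case. Besides the named probeset (-0.29), 1 other was lower by 0.30 and the remaining 5 were higher by 0.04 to 0.10. The second Fkbp5 probeset, at about 8.1, differed by -0.04 ± 0.06. The Thap7 probeset without overlap was close to the detection filter, with means of 4.89 and 4.77, and the other Thap7 probesets, at 7.3 and 8.1, differed by 0.07 and 0.01.

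The PFC and VMB arrays of high and low drinkers were then read for the named probesets of these genes, since those arrays played no part in the choice. In the PFC the 12 higher genes differed between 11 high and 6 low drinkers by -0.12 to 0.07 with a median near 0, and 5 of 12 had the NAc sign. In the VMB, with 10 high and 7 low drinkers, they differed by -0.15 to 0.07, and 4 of 12 had the NAc sign. None of these 12 probesets reached an unadjusted p under 0.05 in either region. The further probesets of these genes were not counted in this way, and they went in both directions in the PFC. The second Dpp8 probeset was higher there in high drinkers by 0.15 ± 0.06 (limma, unadjusted p = 0.020), as in the NAc. The second Tmsb10 probeset (1417219_s_at) differed there by -0.13 ± 0.06, against its direction in the NAc. Of the 12 lower genes, 5 had the NAc sign in the PFC and 6 in the VMB. For 2 of them the PFC difference ran against that in the NAc at an unadjusted p under 0.05 in limma. Ptprn2 was higher in high drinkers in the PFC by 0.23 ± 0.10, at the low levels of 4.59 and 4.83, and Letm1 was higher there by 0.22 ± 0.08. The shares of all tested probesets below that threshold in the PFC and VMB are not given here, so these counts cannot be judged against them.

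**Figure D4:**
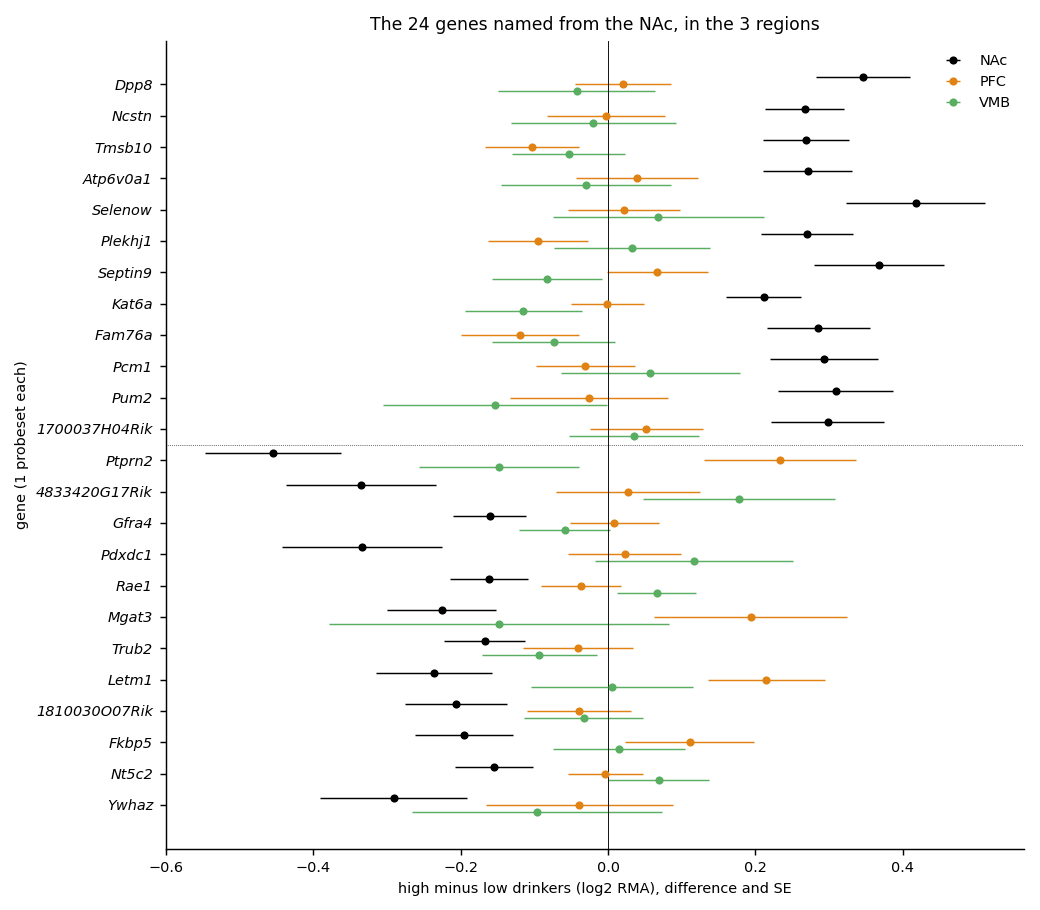
High minus low difference (log2 RMA, x axis) with its SE for the 24 named genes in the NAc (black), PFC (orange) and VMB (green). The NAc differences were the basis of the choice; those of the 12 higher genes in the other regions lie between -0.15 and 0.07.

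Across all probesets, the difference between the NAc effect and that of another region was tested directly. No probeset passed at the 1% false discovery rate for NAc against PFC (0%) or NAc against VMB (0%). At an unadjusted p under 0.05 there were 698 (3.52%) and 412 (2.08%). On simulated data these tests recovered 31.5% (PFC) and 44% (VMB) of differences of 3 residual SD, against 83.5% for the test within the NAc. That simulation drew every array from the NAc means and SDs with independent noise. Recovery with the real spread of the PFC and VMB arrays was not determined. Among the 24 named genes the smallest adjusted p of this test was 0.563 against the PFC, for Ptprn2, and nearly 1 against the VMB. Since the NAc difference enters both the choice and this test, counts of named genes below an unadjusted threshold are not given as a result.

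For gene groups, each gene was represented by the tested probeset of highest mean among those with a single symbol, which gave 11335 genes. Of these, 213 were higher (1.88%) and 69 lower (0.609%) in high drinkers at an unadjusted p under 0.05, and 52% had a difference above 0. The median over all genes was 0.003. Those shares, too, lie below what a threshold of 0.05 would on average give if no gene differed. In no list did a gene pass after adjustment, and the counts below are to be read against those shares. Of the 23 list genes named for an unadjusted p under 0.05, 17 lost it when 1 array or another was left out.

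Genes that define the output neurons of the NAc were close to equal in the 2 groups. Of the 10 striatal projection neuron markers, 6 were higher and 4 lower, none at an unadjusted p under 0.05, with a median difference of 0.006. Drd2, the D2 receptor, had means of 8.57 (SD 0.138) and 8.59 (SD 0.229) in low and high drinkers, which is a difference of 0.02 with a 95% interval of -0.17 to 0.22. Ppp1r1b, which encodes DARPP-32, a phosphatase inhibitor regulated by dopamine, was at 10.92 in both groups (interval -0.19 to 0.19). Penk, the enkephalin precursor, differed by -0.05 (-0.17 to 0.08) and Tac1, the substance P precursor, by 0.01 (-0.11 to 0.13). The 95% intervals of all 10 genes included 0 and none reached beyond 0.38, or 1.30-fold. These arrays thus bound any difference in these markers rather than showing equality.

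Of the dopamine and cAMP signalling genes 11 of 21 were higher, none at an unadjusted p under 0.05, with a median of 0.001. The farthest was Pde7b, a cAMP phosphodiesterase, at -0.18. Among the 8 opioid peptide and receptor genes 3 were higher and 5 lower, none at an unadjusted p under 0.05. Oprm1, the mu receptor, was at 4.83 and 4.82, Oprk1, the kappa receptor, at 6.94 and 6.91, and Pdyn, the dynorphin precursor, at 7.83 and 7.79 in low and high drinkers. Of 21 glutamate receptor and scaffold genes 11 were higher, and 1 had an unadjusted p under 0.05. It was Dlg3 (SAP102), a scaffold of NMDA receptors, with a difference of 0.13 ± 0.05 and 7 high drinkers above all low ones. Of 13 GABA-A receptor and GABA synthesis genes 7 were higher and none had an unadjusted p under 0.05.

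**Figure D5:**
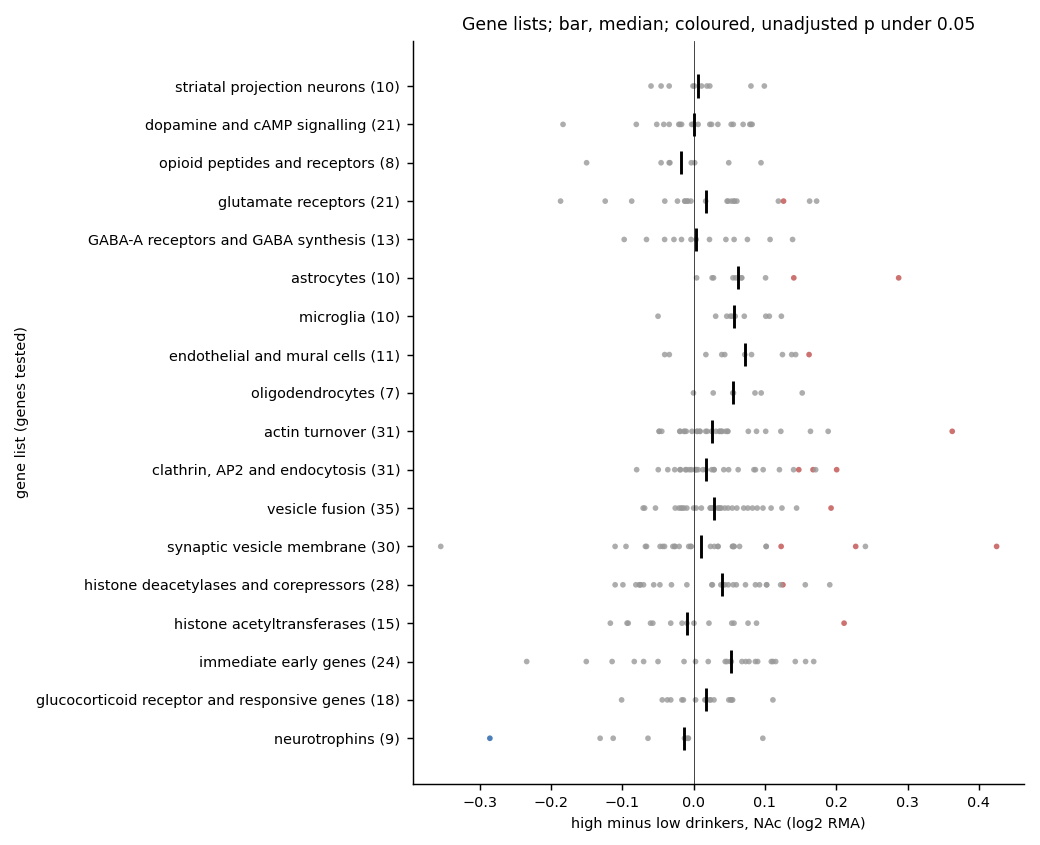
High minus low difference in the NAc (log2 RMA, x axis) of every tested gene in 18 gene lists, 1 point per gene and a bar at the median; the number of genes stands beside each name. Red and blue points have an unadjusted p under 0.05 in limma. The striatal projection neuron points lie within 0.10 of 0, and all 10 astrocyte points lie above 0.

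Markers of non-neuronal cells were mostly higher in high drinkers by small amounts. All 10 astrocyte markers were higher, with a median of 0.06, and 2 of the 10 had an unadjusted p under 0.05. Gfap, the intermediate filament of astrocytes, ran from 6.80 to 7.15 (median 6.85) in low drinkers and from 6.51 to 7.70 (median 7.15) in high drinkers. The high group thus held the lowest as well as the highest value, and 6 of its 11 mice lay above all low drinkers. The difference was 0.29 ± 0.13, and the second Gfap probeset gave 0.33 ± 0.13. Sox9, a transcription factor of astrocytes, was higher by 0.14 ± 0.06, but its second probeset gave -0.02 ± 0.07. Aldoc, Slc1a3 and Gja1, which encode an aldolase, a glutamate transporter and a gap junction protein of astrocytes, differed by 0.004, 0.03 and 0.06. The mean level of the list ran from 8.83 to 9.01 in low drinkers and from 8.84 to 9.19 in high drinkers. Without the arrays of mice 1, 6 and 19, 9 of the 10 were higher and the median was 0.04. In the PFC and VMB the medians of the 10 genes were -0.001 and -0.02.

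Of 10 microglial markers 9 were higher (median 0.06), none at an unadjusted p under 0.05, and the complement genes C1qa, C1qb and C1qc were the farthest at 0.10 to 0.12. Of 11 endothelial and mural cell markers 9 were higher (median 0.07), and 1, the pericyte gene Rgs5, had an unadjusted p under 0.05 (0.16 ± 0.08). The other Rgs5 probesets had exact permutation p of 0.40 to 0.99. Of 7 oligodendrocyte markers 6 were higher (median 0.06), none at an unadjusted p under 0.05, and Ugt8a, an enzyme of myelin lipid synthesis, was the farthest at 0.15. In the PFC and VMB the medians of the oligodendrocyte markers were 0.13 and 0.02. Those of the endothelial and mural cell markers were 0.04 and 0.0009, and those of the microglial markers 0.01 and 0.02. In bulk tissue more cells of a type and more RNA per cell cannot be told apart. Markers of neighbouring tissue varied with the arrays. The mean level of 4 septal and basal forebrain markers ran from 6.11 to 6.74 in low and from 6.04 to 7.05 in high drinkers, and that of 4 cortical excitatory markers from 5.69 to 6.59 and from 5.85 to 6.60. All 4 septal markers and 3 of the 4 cortical markers were higher in high drinkers, none at an unadjusted p under 0.05, and the part of dissection in the gene differences was not tested. The 4 choroid plexus and ependymal markers, at a mean of 4.93, were all lower, by at most 0.11.

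Genes of vesicle traffic at the synapse included several named ones. Of 31 clathrin, AP2 and endocytosis genes 21 were higher, and 3 of them had an unadjusted p under 0.05. Ap2m1, the cargo-binding subunit of the AP2 adaptor, had means of 10.83 (SD 0.111) and 10.97 (SD 0.0573) in low and high drinkers, and Ap2a1, another AP2 subunit, was higher by 0.17 ± 0.07. Dnm1, the neuronal dynamin that pinches off endocytic vesicles, was higher by 0.20 ± 0.07, and its second probeset by 0.32 ± 0.10. Of 35 vesicle fusion genes 26 were higher, and Vamp3, a vesicle SNARE, was the 1 with an unadjusted p under 0.05 (0.19 ± 0.07, with 8 high drinkers above all low ones). Another Vamp3 probeset was higher by 0.13 ± 0.06, while its remaining probesets had exact permutation p of 0.27 to 0.88. Snap25 and Vamp2, SNAREs of the presynaptic terminal, differed by -0.07 and 0.05. Of 30 vesicle membrane genes 15 were higher and 15 lower. Syp, or synaptophysin, was higher by 0.23 ± 0.09 (-0.06 ± 0.11 on its other probeset), Scamp2 by 0.12 ± 0.05 (0.04 ± 0.10 on the other), and Slc17a6, the vesicular glutamate transporter of subcortical neurons, by 0.42 ± 0.20. Slc17a6 ranged widely in both groups, from 5.20 to 6.57 and from 5.18 to 6.84, its second probeset differed by -0.01, and it correlated with the first principal component over the 18 arrays (r = 0.68).

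Of 19 vesicle-related genes that the study picked from these same arrays, 6 had an unadjusted p under 0.05: Ap2m1, Vamp3, Dnm1, Syp and Ap2a1 higher and Bdnf lower. Because they were chosen by their relation to intake in these mice, their direction is not independent evidence. Actin turnover genes were higher in 22 of 31 cases. Pfn1, profilin 1, which delivers actin monomers to growing filaments, was the 1 with an unadjusted p under 0.05. It was higher by 0.36 ± 0.17, but it ran from 7.43 to 8.69 in low and from 7.90 to 8.98 in high drinkers and only 1 high drinker lay above all low ones. Tmsb10 enters this list with its probeset of highest mean, and so with -0.05.

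Among chromatin genes few differed. Of 28 histone deacetylases and corepressor subunits 17 were higher, with Hdac11 (0.13 ± 0.06) the 1 at an unadjusted p under 0.05. The other Hdac11 probeset had an exact permutation p of 0.17. Hdac3 and Hdac1, deacetylases of class I, differed by 0.19 and 0.09, at an unadjusted p of 0.11 and 0.25 in limma. Of 15 histone acetyltransferases 7 were higher and 8 lower, with Kat6a alone at an unadjusted p under 0.05, while its paralog Kat6b differed by 0.08 and Crebbp by 0.05. Of 31 genes of DNA and histone methylation 19 were higher. Cbx5, heterochromatin protein 1 alpha, was the 1 at an unadjusted p under 0.05 with 0.17 ± 0.07. Its other probesets differed by -0.08 to 0.05. Of the 8 chromatin genes that the study picked from these arrays 5 were higher, 3 of them (Kat6a, Cbx5 and Hdac11) at an unadjusted p under 0.05, and again the choice was made on these mice.

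Bdnf, the brain-derived neurotrophic factor, was the 1 neurotrophin gene with an unadjusted p under 0.05. It ran from 5.68 to 6.29 (median 6.13) in low drinkers and from 5.32 to 6.18 (median 5.83) in high drinkers, and 4 high drinkers lay below all low drinkers. The difference was -0.29 ± 0.11, and its other probeset, at about 5.4, gave -0.07 ± 0.07. In this list 8 of the 9 genes were lower, but 4 of them (Ntrk2 and Ntrk3, which encode the receptors TrkB and TrkC, and Sort1 and Gfra2) by 0.01. Immediate early genes, which follow recent neuronal activity, were higher in 17 of 24 cases with a median of 0.05, none at an unadjusted p under 0.05. Fos and Arc differed by 0.17 and 0.07 and Nr4a2 by -0.23. Genes of the glucocorticoid response gave 12 of 18 higher and none at an unadjusted p under 0.05. Its receptor Nr3c1 differed by 0.05, and the induced genes Sgk1 and Tsc22d3 by 0.02 and 0.05, beside the lower Fkbp5 probeset described above.

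Large families of basic cell functions differed by little. Respiratory chain and ATP synthase genes were lower in 54 of 80 cases (median -0.02), 1 of them, the complex I subunit Ndufs4, at an unadjusted p under 0.05 (-0.12 ± 0.06). The other Ndufs4 probesets had exact permutation p of 0.33 and 0.72. Proteasome subunits were lower in 30 of 46 cases (median -0.02) and mitochondrial ribosomal proteins in 44 of 74 (median -0.01), none at an unadjusted p under 0.05. Splicing factors of the hnRNP and SR families were higher in 20 of 27 cases (median 0.04), with Hnrnpl (0.18 ± 0.07) and Hnrnpd (0.13 ± 0.05) at an unadjusted p under 0.05. The proteasome and splicing factor genes also moved along the first axis of the array plot, with a median r of 0.63 and 0.65, and without the arrays of mice 1, 6 and 19 the proteasome count was 22 of 46 higher. Of 56 potassium channel genes 22 were higher, and Kcnmb2, an auxiliary subunit of BK channels, was the 1 at an unadjusted p under 0.05 (0.20 ± 0.07, at a level of 5.18 and 5.38). The other Kcnmb2 probeset had an exact permutation p of 0.34. Of 6 sodium pump subunit genes 4 were higher, and Atp1b2, a beta subunit known from astrocytes, was the 1 at an unadjusted p under 0.05, by 0.14 ± 0.06 on one probeset and 0.32 ± 0.11 on the other.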

How the data were processed

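Total RNA of the NAc, PFC and VMB of individual mice was hybridised to Affymetrix mouse arrays. Per the labels and the study's methods, the authors scanned the arrays with GCOS software and deposited RMA values on the log2 scale. Replicates were not pooled, and the genome build behind the probe annotation is not given in the sources used here. Probesets were named through the platform annotation supplied with the data (20380 with 1 symbol, 691 with several, 1555 with none). Values were used as deposited. Probesets reaching 4.5 on at least 1 of the 57 arrays were kept.

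High and low drinkers were compared in limma 3.58.1 (R 4.3.3) with empirical Bayes moderation and Benjamini-Hochberg adjustment over all 19815 probesets, on the 18 NAc arrays. Unadjusted p-values in the text are limma's. Differences between regions were tested as interaction terms over the NAc and PFC or the NAc and VMB arrays. Exact permutation tests were two-sided (scipy 1.17.1). The p-values measure the spread between mice, and the number of arrays limits their precision. On simulated data, 200 changed probesets among 19815 were recovered at 0%, 12.5% and 83.5% for differences of 1, 2 and 3 residual SD in the high against low comparison. The noise was drawn independently for each array and probeset, without the variation that real arrays share along the first principal component. Under that setting, only differences of about 3 SD were usually called.

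Named genes were the 12 of smallest p in each direction (1 symbol, mean of 6 or more), up to 4 genes per list with an unadjusted p under 0.05, all other probesets of these genes, and probesets whose groups did not overlap. Genes named outside this rule are members of the gene lists, given whatever their value. The comparison, the lists and these rules were chosen with earlier results of these data known. Replicate numbers were taken to mark the same mouse in each region, which the labels do not state. Deviations from group means of same-numbered arrays correlated with a median r of 0.068 (PFC) and 0.180 (VMB) over 17 pairs each, 7 and 9 of them over 0.1. The pairs ranged from -0.086 to 0.340 (PFC) and from -0.488 to 0.635 (VMB), so the match was only weakly visible in the values. The array of mouse 20 titled as PFC has another region in a further label. It was kept by its title, and left out as an alternative. Alternatives were quantile normalization, centring, array weights, other filters, a moderated trend, 1 probeset per gene, a covariate (the first principal component), rank and t-tests, and leaving out arrays.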

Additional observations from a re-analysis of the deposited data

Results flagged for a closer look

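In 2 of the 48 named probesets tested for it, 1 low drinker stood far from the other 6, by the gap to its neighbour over the range of the group. For Gfap (1426508_at) this was mouse 18, the highest of the low drinkers at 7.15, with a ratio of 0.621. For Vamp3 (1437708_x_at) it was mouse 9, the lowest at 8.88, with a ratio of 0.597. Chance flags about 1 in 20 such groups, and the group of 11 high drinkers was not tested in this way.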

How the results depend on the processing

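The count of 0 probesets after adjustment held under quantile normalization, centring, trend and robust moderation, both filters and 1 probeset per gene. It also held under the methods' t-test and with the first principal component as a covariate (smallest adjusted p 0.146). The same was true without the arrays of mice 1, 6 and 19, a setting chosen after seeing the data. The exact rank-sum test gave 0 as well, but its p has the same lower limit as the permutation test, so that 0 adds no support. With array weights 1 probeset passed, Selenow (adjusted p = 0.00937). Array weights gave 1214 probesets at an unadjusted p under 0.05 (696 higher, 518 lower), the principal component 1575 (829 and 746), and 1 probeset per gene, with fewer probesets tested, 297 (225 and 72). Quantile normalization gave 342 lower. The cause of these shifts was not tested. Without mice 1, 6 and 19 there were 666. Leaving out each array in turn gave 400 to 711 probesets, 229 to 486 higher and 137 to 243 lower, and 0 to 0 after adjustment; the fewest higher, 229, came without mouse 6. Adding the mouse as a replicate block to the interaction fits moved 698 to 835 (PFC) and 412 to 611 (VMB), with 0 adjusted in both. Named probesets that crossed an unadjusted threshold in these fits are not listed, since their NAc difference enters both the choice and the test. The 24 leading genes had an exact permutation p under 0.05 for means, and 23 did for medians. They were chosen for this same difference on these same arrays, so that outcome was favoured in advance and adds no support. Of 414 single-probeset results under other settings none changed sign and 29 no longer had p under 0.05, among them Thap7, Hdac11, Ap2a1, Sox9, Dlg3, Scamp2, Atp1b2 and Bdnf. With 1 array left out, 102 of 864 no longer had p under 0.05 and none changed sign. Of the 23 list genes 17 were affected, with a highest p of 0.061 for Gfap, 0.059 for Syp, 0.066 for Cbx5, 0.12 for Rgs5, 0.13 for Pfn1, 0.12 for Slc17a6 and 0.13 for Txnrd1. In the simulation with independent noise, differences under about 3 residual SD were mostly not recovered with 18 arrays.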

Other observations

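Several other gene groups of the NAc differed little between high and low drinkers, and none of their genes passed after adjustment. Of 16 neuropeptide genes 9 were higher and none had an unadjusted p under 0.05, and the same held for 3 of 7 striatal interneuron markers, 10 of 20 clock genes, 9 of 17 genes of ethanol and acetaldehyde metabolism, 16 of 40 chaperones, 14 of 29 sodium and calcium channel genes and 20 of 47 cytoplasmic ribosomal protein genes. Of 2 oligodendrocyte precursor markers and of 2 blood markers 1 each was higher. Of 26 selenoprotein and antioxidant genes 14 were higher, and Txnrd1, a thioredoxin reductase, was the 1 with an unadjusted p under 0.05 in limma (0.18 ± 0.08), while its other probesets gave -0.14 ± 0.08 and 0.04 ± 0.08. Of 21 genes of phosphoinositide 3-kinase signalling 10 were higher, and Inppl1, the lipid phosphatase SHIP2, was the 1 with an unadjusted p under 0.05 (0.16 ± 0.07). Of 26 ubiquitin conjugating enzyme genes 10 were higher, and Ube2v1 was the 1 with an unadjusted p under 0.05 (0.19 ± 0.07, with 8 high drinkers above all low drinkers).

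Mouse 3, whose intake lay between the groups, was compared with neither. Its NAc value was nearer to the mean of high than of low drinkers for 11 of the 12 genes named as higher and for 6 of the 12 named as lower. Dpp8 was at 8.03 and Ncstn at 6.29 in this mouse, and Ptprn2 at 7.12. The share of all tested probesets for which this mouse lay nearer to the high mean is not given here, so these counts cannot be judged against it. It is a single animal and no test was made.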
